A study of Mus musculus with 9 samples.

Results

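CXC chemokines are small secreted proteins that steer leukocytes, and 8 of their genes were followed here: Cxcl1, Cxcl2, Cxcl3, Cxcl9, Cxcl10, Cxcl14, Cxcl16 and Pf4. They were taken by name, through their Ensembl identifiers, from a table of read counts for 22165 genes in 9 libraries. All 8 had reads and passed the filter on low counts, which kept 10781 genes. The cells were bone marrow-derived macrophages, grown in culture from mouse marrow precursors. Donor mice were C57BL/6N and 6 to 16 weeks old. Every culture received lipopolysaccharide (LPS, a bacterial outer membrane component) at 100 ng/mL and was lysed at 24 h. The 3 groups, of 3 libraries each, were labelled wild type (WT), Irg1-/- (KO), and Irg1-/- with 1 mM itaconate added 4 h after LPS (itaconate). Irg1 (Acod1) codes for the enzyme of itaconate synthesis, and which of its exons the deletion covers is not given. No group went without LPS, so induction by LPS was not measured. Nothing in the labels ties replicates to separate animals or cultures, so the p-values measure the spread between these libraries, which may be technical.

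Macrophages that sense LPS through Toll-like receptor 4 make CXC chemokines by 2 broad routes. NF-κB drives the neutrophil attractants Cxcl1, Cxcl2 and Cxcl3, whose products act on the receptor Cxcr2. Interferons, through STAT factors, drive Cxcl9 and Cxcl10, whose products draw activated T cells and natural killer cells through Cxcr3. Cxcl16 is a membrane-bound ligand of Cxcr6 that can be shed, Pf4 (platelet factor 4) is best known from platelet granules, and Cxcl14 is known mostly from epithelial and stromal cells.

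Cxcl1, Cxcl2 and Cxcl3 lie on the plus strand of chromosome 5 in GRCm38, the build of the submitters' mm10. Cxcl3 spans 90786103 to 90789600, Cxcl1 90891241 to 90893115 and Cxcl2 90903871 to 90905938, and Pf4 starts the same 134 kb stretch at 90772435. Cxcl9 (92321347 to 92328079) and Cxcl10 (92346638 to 92348889) lie about 1415 kb further along, on the minus strand. Cxcl14 is on chromosome 13 (56288643 to 56296551) and Cxcl16 on chromosome 11 (70453983 to 70459984), both on the minus strand. The stretches before the starts of the neutrophil attractants are shown because the longest run that their 3 promoter windows share, GGGAATTTCCC, holds a binding motif of NF-κB. It is printed in capitals, and its first base lies 71, 97 and 73 bases before the RefSeq start of Cxcl1, Cxcl2 and Cxcl3. The stretches run 5′ to 3′ on the plus strand at chr5:90891135-90891240, chr5:90903789-90903870 and chr5:90785991-90786100, from RefSeq windows on GRCm38.p6. Each stops before the RefSeq start or the gene start given above, whichever comes first. The printed lengths are 106, 82 and 110 bases, so the Cxcl1 and Cxcl2 distances do not count from the printed end.
Cxcl1: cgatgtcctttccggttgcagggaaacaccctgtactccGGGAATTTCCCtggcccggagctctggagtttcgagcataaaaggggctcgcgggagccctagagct
Cxcl2: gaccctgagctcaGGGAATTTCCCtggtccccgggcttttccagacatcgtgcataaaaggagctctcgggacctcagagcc
Cxcl3: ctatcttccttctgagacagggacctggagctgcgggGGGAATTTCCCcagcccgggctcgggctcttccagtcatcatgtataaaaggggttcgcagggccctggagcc

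The shared run was found, on either strand, in 14 of 32851 mouse promoter windows of the 250 bases before a gene's start, or 0.0426%. The windows of Cxcl1, Cxcl2 and Cxcl3, from which the run was taken, are among the 14. The windows of the interferon-driven pair are shown for contrast, on the minus strand at chr5:92328080-92328329 for Cxcl9 and chr5:92348890-92349139 for Cxcl10. Capitals mark matches, on either strand, to the κB consensus and to AANNGAAA, the core motif of interferon regulatory factors, and neighbouring capitals can be overlapping matches.
Cxcl9: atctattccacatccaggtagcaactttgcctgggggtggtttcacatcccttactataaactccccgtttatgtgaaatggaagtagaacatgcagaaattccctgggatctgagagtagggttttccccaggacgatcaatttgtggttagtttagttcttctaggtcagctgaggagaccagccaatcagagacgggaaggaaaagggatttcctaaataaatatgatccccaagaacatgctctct
Cxcl10: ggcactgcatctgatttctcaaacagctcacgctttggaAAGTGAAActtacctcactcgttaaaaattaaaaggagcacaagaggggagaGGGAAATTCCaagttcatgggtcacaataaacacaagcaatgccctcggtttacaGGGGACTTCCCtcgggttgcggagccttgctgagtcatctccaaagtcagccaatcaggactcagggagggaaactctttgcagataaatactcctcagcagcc

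The Cxcl10 window held κB consensus matches at 2 places, of which the nearer to the start is several overlapping matches, and the interferon regulatory factor core with its first base 211 bases before the start. The Cxcl9 window held neither. The κB consensus was present in 7.25% of all windows and the core in 21.3%. The Cxcl14 window held the core and TTCNNNGAA, the STAT-type motif (7.02% of all windows), and the Pf4 window held none of the 4. A match describes letters only, and its absence concerns these windows only. Of the 8 members, 7 were found in the promoter table.

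Irg1 was read first because it tests the genotype labels, and 4 libraries went against them. WT replicates 1 to 3 held 94, 117 and 31169 of its reads, KO replicates 154, 170 and 44920, and itaconate replicates 94, 8 and 60716. The libraries labelled WT replicates 1 and 2 thus held few reads of a gene they should express, and those labelled KO replicate 3 and itaconate replicate 3 held many of a gene they should lack. Groups below are as labelled, every direction between them carries this conflict, and the fold changes are also given with those 4 libraries left out where a call, a direction or the size differs. Depth was 7361671 to 20430359 gene reads. A count of 0 allows up to 3 reads, or 0.147 to 0.408 CPM (reads scaled to the library's total), a limit for counting error only. The 7 macrophage markers were all detected, and their summed level was 7264 to 9552 CPM in WT, 6517 to 7045 CPM in KO and 3590 to 7064 CPM in itaconate libraries. The lowest of these sums was in itaconate replicate 3, which also had the lowest mean correlation with the other libraries (0.909, against 0.939 to 0.954). Reads outside annotated genes made up 33.7% of its reads and 28.4% of those of KO replicate 1, against 23.1% to 26.9% elsewhere. The number before the barcode in the description labels, taken here to be a pool of libraries, which no label states, was 1 for WT replicates 1 to 3 and KO replicates 1 and 2. It was 2 for KO replicate 3 and itaconate replicate 1, 3 for itaconate replicate 2 and 4 for itaconate replicate 3.

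Across the 3 comparisons no CXC chemokine passed the edgeR threshold (quasi-likelihood F test, Benjamini-Hochberg adjusted p under 0.05), where 0% of the 10781 genes passed in each. At an unadjusted p under 0.05 there were 2 of 8 members in KO against WT (3.13% of all genes), 2 of 8 in itaconate against KO (8.3%) and 0 of 8 in itaconate against WT (8.89%). DESeq2 called none of the 8 either, with 0.00928%, 0.111% and 0.13% of genes called in the same order, and gave 5 of them no adjusted p in itaconate against WT. limma-voom called 0% of genes in each. The median log2 fold change of the members was -0.19 in KO against WT, 0.45 in itaconate against KO and 0.08 in itaconate against WT, beside -0.01, -0.02 and -0.01 over all genes tested. These comparisons share libraries and are not independent. Levels below are CPM on totals scaled by TMM (a trimmed mean of log ratios), and fold changes are on the log2 scale with their standard error (SE). In whole cultures, fewer cells that make a chemokine and less of its RNA per cell cannot be told apart.

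**Figure D1:**
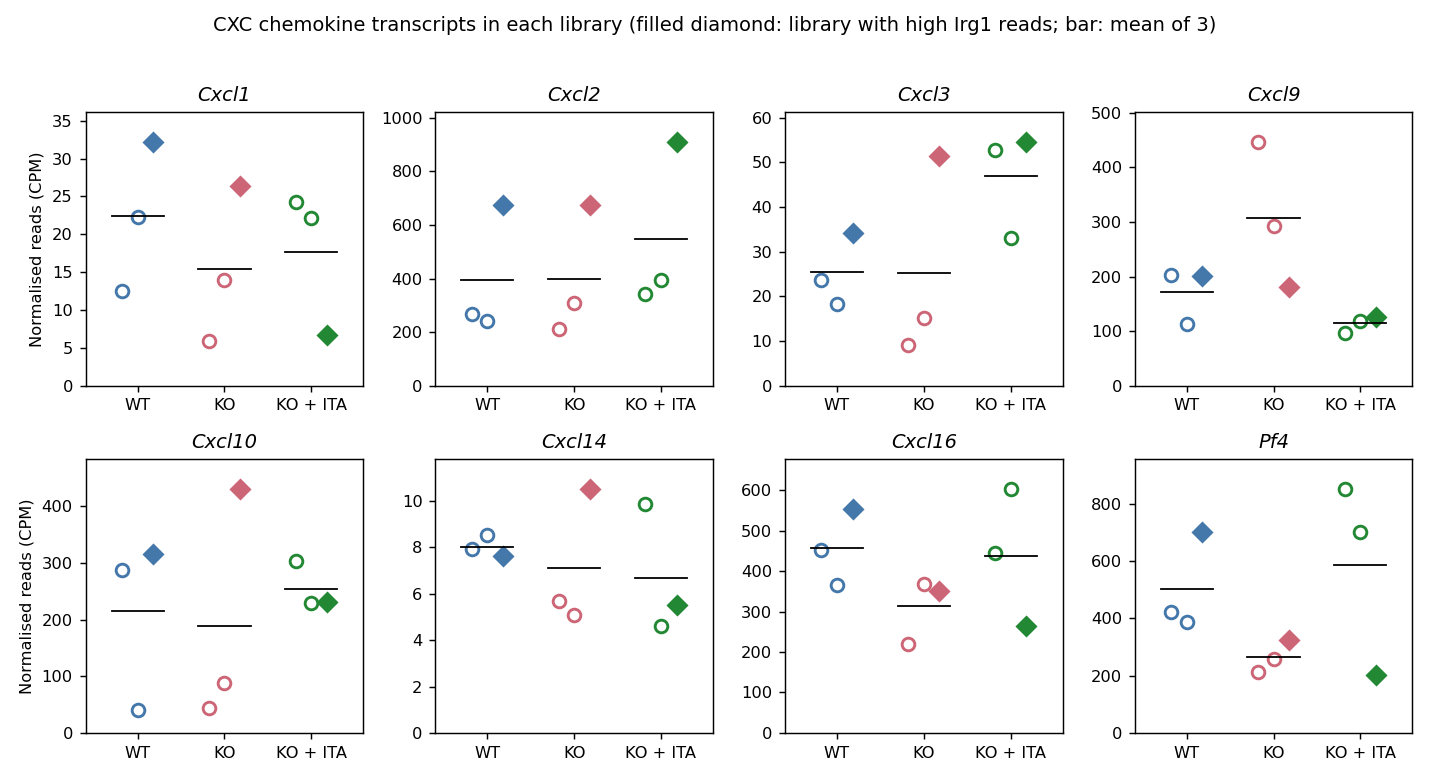
Normalised reads (CPM, linear axes starting at 0) of the 8 CXC chemokines in the 9 libraries, by labelled group; bars are means of 3 libraries and filled diamonds are the 3 libraries with high Irg1 reads. The 3 diamonds are the 3 highest libraries for Cxcl2 (674, 676 and 911 CPM), whereas for Pf4 the itaconate diamond is the lowest of the 9 (201 CPM).

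Cxcl2, a neutrophil attractant made early after LPS, was the most abundant of the 3 Cxcr2 ligands in reads. Its level was 270, 241 and 674 CPM in WT, 212, 310 and 676 CPM in KO and 341, 395 and 911 CPM in itaconate libraries. Replicate 3 was the highest in each group, and these 3 libraries are the ones with high Irg1 reads. The groups overlapped fully, with means of 395 ± 242, 399 ± 244 and 549 ± 315 CPM (SD, n = 3). The log2 fold change was 0.01 ± 0.49 (SE) for KO against WT, 0.46 ± 0.49 for itaconate against KO, and 0.48 ± 0.49 with itaconate set against WT (edgeR adjusted p = 0.999, 0.831 and 0.786). With the 4 libraries in conflict with their Irg1 labels left out, the first of these became -1.35 ± 0.41 and the last -0.88 ± 0.41 (adjusted p = 0.219 and 1), which leaves WT replicate 3 as the only WT library, with its spread supplied by the other groups.

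Cxcl1, which carries the same promoter run and acts on the same receptor, ordered the libraries differently. It stood at 12.5, 22.3 and 32.2 CPM in WT, 5.96, 13.9 and 26.4 CPM in KO and 24.3, 22.2 and 6.66 CPM in itaconate libraries. Within WT and KO the library with high Irg1 reads was the highest, whereas within itaconate it was the lowest. Means were 22.4 ± 9.88, 15.4 ± 10.3 and 17.7 ± 9.62 CPM (SD, n = 3), in groups that overlapped. The log2 fold changes were -0.54 ± 0.53, 0.21 ± 0.53 and -0.33 ± 0.53 in the order used for Cxcl2 (edgeR adjusted p = 0.995, 0.945 and 0.863). KO against WT was -1.15 without KO replicate 3 and -0.15 without KO replicate 1.

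The ratio of Cxcl2 to Cxcl1 reads does not depend on library scaling. It was 21.6, 10.8 and 20.9 in WT, 35.5, 22.3 and 25.6 in KO, and 14.0, 17.8 and 137 in itaconate libraries. Itaconate replicate 3 stood far above the other 8, with 8615 Cxcl2 and 63 Cxcl1 reads. It is 1 of the 4 libraries in conflict with their labels. Among the other 5, both KO ratios lay above the WT ratio, 1 of them narrowly (22.3 against 20.9), and both itaconate ratios below it. These 5 libraries were picked with the values known, and pool and itaconate cannot be told apart among them. The share of ratios ordered in this way was not measured.

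Cxcl3, the other Cxcr2 ligand with the shared run, was 23.8, 18.3 and 34.1 CPM in WT, 9.04, 15.1 and 51.5 CPM in KO and 52.8, 33.1 and 54.7 CPM in itaconate libraries. KO replicate 3 lay apart from the other KO libraries and among the itaconate ones. Means were 25.4 ± 8.05, 25.2 ± 22.9 and 46.9 ± 11.9 CPM (SD, n = 3). The log2 fold change was -0.02 ± 0.50 for KO against WT, 0.90 ± 0.50 for itaconate against KO, and 0.89 ± 0.50 with itaconate set against WT (edgeR adjusted p = 0.999, 0.643 and 0.614). Without KO replicate 3 the itaconate against KO value was 1.95 (adjusted p = 0.107), and KO against WT was -1.05. Part of the Cxcl2 sequence is shared with Cxcl3. Of the 50-base words in the last 500 bases of Cxcl2 transcripts, 7.63% also occur in Cxcl3 transcripts, so the counting of Cxcl2 is less certain. For the last 500 bases of Cxcl3 transcripts, 0% of the words were shared with another gene.

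The smallest p among the members was that of Cxcl9, an interferon-γ-induced ligand of Cxcr3. Its level was 203, 113 and 201 CPM in WT, 447, 292 and 181 CPM in KO and 97.4, 119 and 126 CPM in itaconate libraries. Every itaconate library lay below every KO library, as was so for 5.29% of all genes, while WT overlapped with both. Means were 172 ± 51.7, 307 ± 134 and 114 ± 15 CPM (SD, n = 3). Itaconate against KO gave a log2 fold change of -1.43 ± 0.35, with an unadjusted p of 0.00101 and an edgeR adjusted p of 0.507. Over its alternatives that adjusted p ranged from 0.0162, when low counts were left unfiltered and 0.536% of genes were called, to 1, with the pool as a term. KO against WT gave 0.83 ± 0.35 (unadjusted p = 0.0293, adjusted p = 0.995) and itaconate against WT -0.59 ± 0.34 (adjusted p = 0.622). The KO value rests on KO replicate 1 in part, being 0.46 without it.

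Cxcl10, the other interferon-driven ligand of Cxcr3 and the 1 of this pair with κB and interferon regulatory factor motifs in its promoter window, varied most between libraries among the 8 members, 10.8-fold from lowest to highest. It was 287, 39.8 and 316 CPM in WT, 43.7, 88.7 and 431 CPM in KO and 304, 229 and 231 CPM in itaconate libraries. WT replicate 2 and KO replicates 1 and 2 were low, and the other 6 libraries lay at 229 CPM or above. Means were 215 ± 152, 188 ± 212 and 255 ± 42.5 CPM (SD, n = 3). The log2 fold changes were -0.19 ± 0.71, 0.44 ± 0.71 and 0.25 ± 0.71 (edgeR adjusted p = 0.998, 0.890 and 0.928). The itaconate against KO value was 1.94 without KO replicate 3 and -0.03 without KO replicate 1. Cxcl10 overlaps Art3 on the opposite strand. Of the 50-base words in the last 500 bases of Cxcl10 transcripts, 9.2% also occur, on either strand, in Art3 transcripts. Art3 held 13 reads over all 9 libraries.

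The 2 Cxcr3 ligands did not follow each other across libraries. The ratio of Cxcl9 to Cxcl10 reads was 0.708, 2.83 and 0.635 in WT, 10.2, 3.30 and 0.419 in KO, and 0.321, 0.519 and 0.546 in itaconate libraries. The ratio was above 1 in WT replicate 2 and KO replicates 1 and 2, and below 1 in the other 6. All 3 itaconate libraries lay below all 3 WT libraries, narrowly (0.546 against 0.635), while KO spanned both. Among single genes 7.25% were lower in this way in itaconate against WT. The share among ratios was not measured. With the 4 conflicting libraries left out, both KO ratios lay above 1 and the WT ratio and both itaconate ratios below it. On the log2 scale the group means were 0.12 ± 1.20 in WT, 1.27 ± 2.34 in KO and -1.15 ± 0.42 in itaconate (SD, n = 3).

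**Figure D2:**
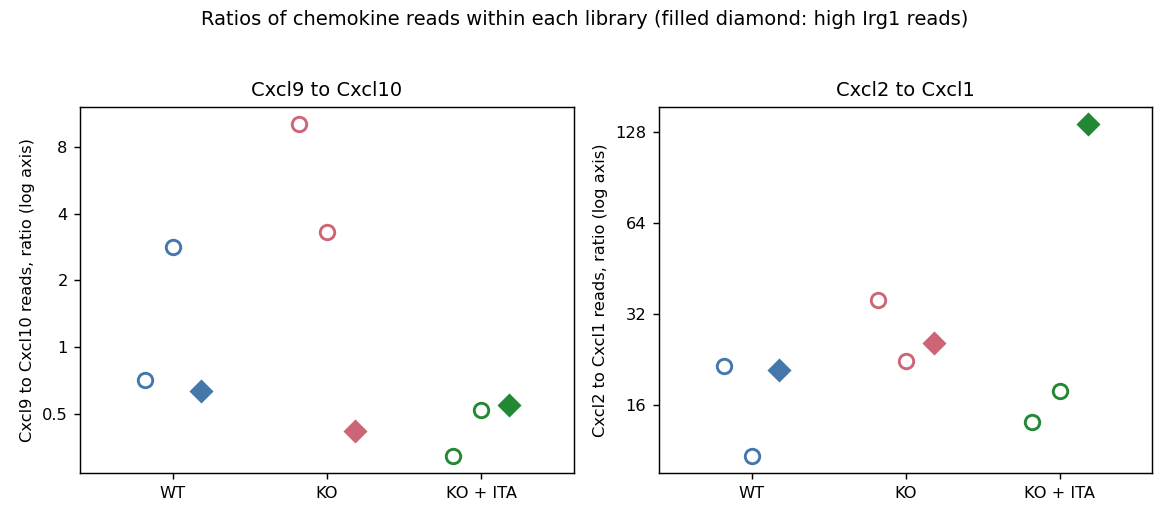
Ratio of Cxcl9 to Cxcl10 reads (left) and of Cxcl2 to Cxcl1 reads (right) within each library, on log axes by labelled group; filled diamonds are libraries with high Irg1 reads. The left panel runs from 0.321 to 10.2, with WT replicate 2 and 2 KO libraries above 1, and in the right panel itaconate replicate 3 stands alone at 137.

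Pf4, a heparin-binding chemokine of platelets that macrophages also express, was 423, 386 and 701 CPM in WT, 214, 257 and 325 CPM in KO and 853, 703 and 201 CPM in itaconate libraries. Every KO library lay below every WT library (5.76% of all genes), whereas the itaconate libraries lay on both sides of the KO ones. Means were 503 ± 172, 265 ± 56.4 and 585 ± 341 CPM (SD, n = 3). The log2 fold change was -0.92 ± 0.43 for KO against WT (unadjusted p = 0.0474, edgeR adjusted p = 0.995), 1.14 ± 0.43 for itaconate against KO (unadjusted p = 0.0179, adjusted p = 0.523), and 0.22 ± 0.42 with itaconate set against WT (adjusted p = 0.894). Of the 7 megakaryocyte and platelet markers, Gp9 had no reads, Gp1ba had 1 read in all, Gp1bb 5, Itga2b 47 and Clec1b 61. Gp6 had 647 reads in all and Ppbp 333, and both had reads in every library. Their summed level was 12.5 to 14.9 CPM in WT, 8.27 to 10.1 CPM in KO and 5.60 to 15.8 CPM in itaconate libraries. Those sums include Ppbp, which lies beside Pf4 in the genome, and their part in the Pf4 values was not tested.

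Cxcl16, the membrane-bound ligand of Cxcr6, was 452, 365 and 554 CPM in WT, 220, 368 and 352 CPM in KO and 445, 604 and 265 CPM in itaconate libraries. KO replicate 1 and itaconate replicate 3, the libraries with most reads outside genes, were the lowest 2 of the 9, as also for Cxcl1 and Pf4. Means were 457 ± 95, 313 ± 81.2 and 438 ± 170 CPM (SD, n = 3), and the log2 fold changes were -0.54 ± 0.33, 0.48 ± 0.33 and -0.06 ± 0.33 (edgeR adjusted p = 0.995, 0.722 and 0.965). Cxcl16 overlaps Zmynd15 on the other strand, which stood at 6.87 to 21.6 CPM.

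Cxcl14 was the least abundant member, at 7.92, 8.51 and 7.63 CPM in WT, 5.67, 5.07 and 10.5 CPM in KO and 9.88, 4.61 and 5.5 CPM in itaconate libraries. The groups overlapped, and the log2 fold changes were -0.19 ± 0.40, -0.08 ± 0.40 and -0.26 ± 0.41 (edgeR adjusted p = 0.995, 0.974 and 0.859). Stromal marker RNA was present in every library, with a summed level of the 7 markers of 187 to 273 CPM in WT, 190 to 223 CPM in KO and 169 to 275 CPM in itaconate libraries. Its part in the Cxcl14 level was not tested.

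In group order, KO was lowest on average for Cxcl1, Cxcl3, Cxcl10, Cxcl16 and Pf4 and highest for Cxcl9. Itaconate was highest for Cxcl2, Cxcl3, Cxcl10 and Pf4 and lowest for Cxcl9 and Cxcl14. Neighbours in these orders overlapped between libraries for every member except Pf4 in KO and WT, so the order of most of them is within their spread.

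**Figure D3:**
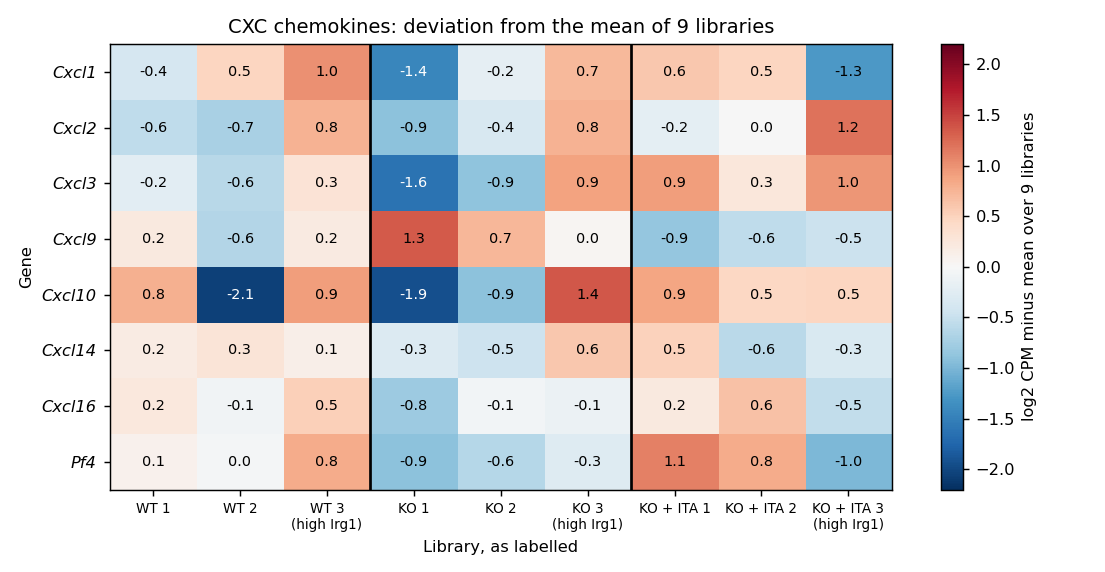
Deviation of each CXC chemokine (rows) in each library (columns, as labelled) from its mean over the 9 libraries, in log2 CPM, red above and blue below. KO replicate 1 is blue for every member but Cxcl9, while KO replicate 3 is red for Cxcl1, Cxcl2, Cxcl3, Cxcl10 and Cxcl14 and blue for Cxcl16 and Pf4.

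With the 4 libraries in conflict with their Irg1 labels left out, itaconate replicates 1 and 2 were set against KO replicates 1 and 2. In that fit edgeR called 217 of 11342 genes (1.91%), and 4 of the 8 members were among them. Cxcl9 was lower with itaconate, at a log2 fold change of -1.80 ± 0.36 (adjusted p = 0.0166), among 161 genes called lower (1.42%). Cxcl10 was higher at 1.98 ± 0.39 (adjusted p = 0.0155), Cxcl3 at 1.81 ± 0.38 (adjusted p = 0.0177) and Pf4 at 1.70 ± 0.34 (adjusted p = 0.0166), among 56 called higher (0.494%). Cxcl1 differed by 1.21 ± 0.40 (adjusted p = 0.118), Cxcl16 by 0.80 ± 0.36 (adjusted p = 0.283), Cxcl2 by 0.47 ± 0.34 (adjusted p = 0.58) and Cxcl14 by 0.42 ± 0.47 (adjusted p = 0.752).

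These calls rest on 2 libraries a group, chosen by their Irg1 reads with the values known. All the libraries compared held few Irg1 reads (KO 154 and 170, itaconate 94 and 8). Those reads thus cannot check which of them received itaconate. The pools do not overlap, as both KO libraries carry pool 1 and the itaconate ones pools 2 and 3. Pool and treatment thus cannot be told apart there. With the pool as a term in a fit of all 9 libraries, no member was called. That fit in effect compares itaconate replicate 1 with KO replicate 3 alone. The latter is 1 of the 4 libraries in conflict with their Irg1 labels, so pool and label conflict cannot be told apart in that fit. The values were then 1.39 for Pf4, -0.89 for Cxcl9, -0.51 for Cxcl10 and 0.04 for Cxcl3 (adjusted p = 0.812 for Pf4 and 1 for the other 3). For KO against WT the fit without the 4 libraries called 2 genes (0.0176%) and no member, although Cxcl10 differed by -2.24 ± 0.44 (adjusted p = 0.103) and Pf4 by -1.55 ± 0.39 (adjusted p = 0.163) from the single remaining WT library. The other values against that library were -1.68 for Cxcl1, -1.48 for Cxcl3, 0.90 for Cxcl9, -0.48 for Cxcl14 and -0.89 for Cxcl16. For itaconate against WT that fit called 1 gene (0.00882%), which was no member, and beside the Cxcl2 value above it gave 0.33 for Cxcl3, 0.15 for Pf4 and between -0.90 and -0.07 for the other 5. Within pool 1, which sets 2 KO against 3 WT libraries, Cxcl10 differed by -1.68 and Cxcl9 by 1.13 (adjusted p = 0.503 and 0.383).

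**Figure D4:**
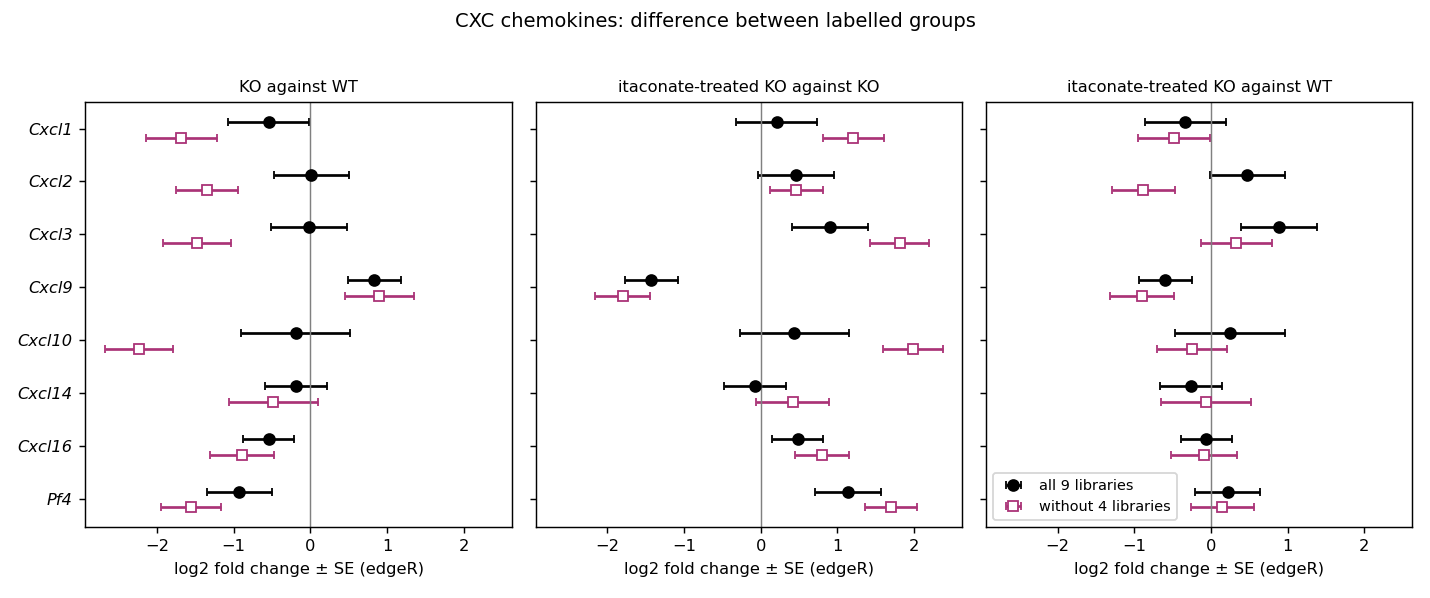
Log2 fold change ± SE from edgeR for the 8 CXC chemokines in each comparison, with all 9 libraries (black) and with the 4 libraries in conflict with their Irg1 labels left out (open squares). In the middle panel the squares of Cxcl3 (1.81), Cxcl10 (1.98), Pf4 (1.70) and Cxcl9 (-1.80) are the only calls.

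The makeup of the chemokine reads also differed by library. The 15 CXC ligand genes in the table together took 1206 to 2547 CPM in WT, 1163 to 2078 CPM in KO and 1826 to 2164 CPM in itaconate libraries. Cxcl9 was 38.4% of these reads in KO replicate 1 (9146 of 23803, Wilson 95% interval 37.8% to 39.0%) and 4.50% in itaconate replicate 1 (1055 of 23437, 4.24% to 4.77%). Cxcl2 was 49.9% in itaconate replicate 3 and 15.6% in WT replicate 1, and Pf4 was 39.4% in itaconate replicate 1 and 11% in itaconate replicate 3. The intervals cover counting error only. Reads of these 3′ libraries do not scale with transcript length, so the shares are of reads.

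**Figure D5:**
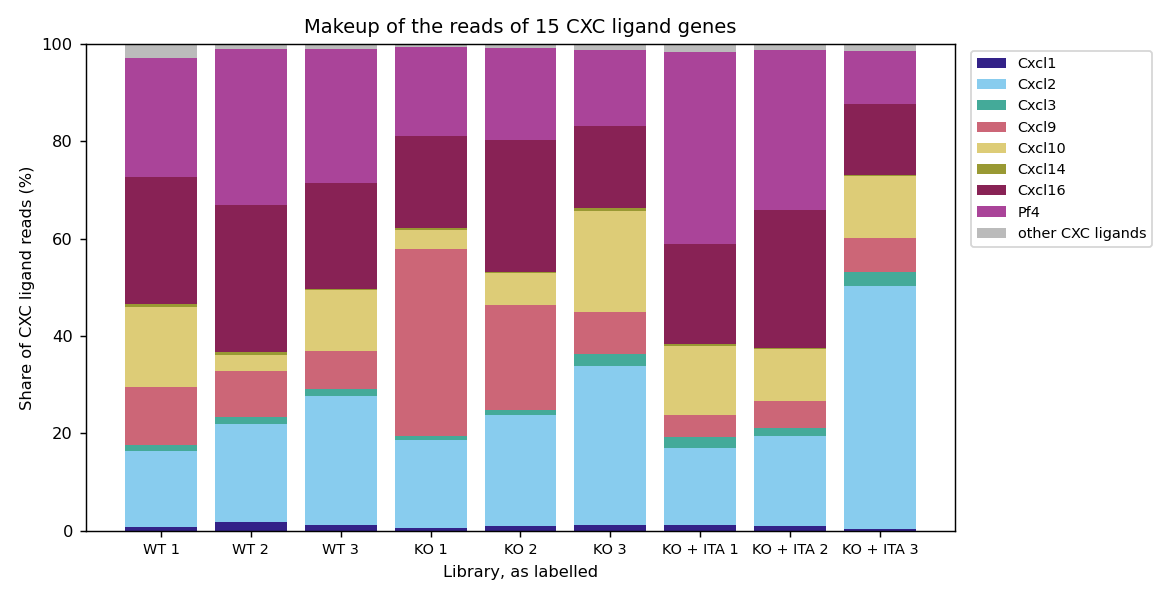
Share (%) of the reads of 15 CXC ligand genes taken by each gene in the 9 libraries, as stacked bars from 0 to 100. Cxcl9 takes 38.4% in KO replicate 1, Cxcl2 49.9% in itaconate replicate 3 and Pf4 39.4% in itaconate replicate 1.

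Of the 7 other CXC ligand genes, 4 passed the filter and none passed the test with all 9 libraries. Cxcl11, the third Cxcr3 ligand, which the annotation lists as a polymorphic pseudogene, was 41.9, 2.34 and 15.3 CPM in WT, 2.83, 7.26 and 14.7 CPM in KO and 23.9, 19.2 and 15.1 CPM in itaconate libraries. Every itaconate library lay above every KO library, as for 5.61% of all genes (log2 fold change 1.25 ± 0.71, edgeR unadjusted p = 0.0998). Its ratio to Cxcl10 was highest in WT replicate 1, at 0.146, and between 0.034 and 0.0838 in the others. Ppbp, a platelet Cxcr2 ligand, averaged 4.21 ± 0.80, 1.80 ± 1.34 and 4.68 ± 2.95 CPM in WT, KO and itaconate (SD, n = 3), with log2 fold changes of -1.26 ± 0.61 and 1.41 ± 0.61 for KO against WT and itaconate against KO. Cxcl5, another neutrophil attractant, had 17, 67 and 40 reads in WT, 2, 36 and 29 in KO and 37, 30 and 69 in itaconate libraries. Scaled to depth, every itaconate library again lay above every KO library (log2 fold change 1.34 ± 0.79, edgeR unadjusted p = 0.11). With the 4 conflicting libraries left out, Cxcl11 and Ppbp were called higher in itaconate against KO, at 2.09 ± 0.44 and 2.51 ± 0.65 (edgeR adjusted p = 0.0171 and 0.0438). The limits of pool, number and treatment labels given for the members hold here too. Cxcl5 was 1.27 ± 0.87 in that fit (edgeR adjusted p = 0.54). Cxcl12, the stromal ligand of Cxcr4, stayed between 0.63 and 3.74 CPM. Cxcl13 had 3 reads, all in WT replicate 1, and Cxcl15 and Cxcl17 had none.

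Among the receptors, Cxcr4 was the most abundant, at 18 ± 2.83, 17.5 ± 8.05 and 23.7 ± 6.91 CPM in WT, KO and itaconate (SD, n = 3). Cxcr2, the receptor of Cxcl1, Cxcl2 and Cxcl3 and a marker of neutrophils, had 29, 51 and 3 reads in WT, 36, 46 and 22 in KO and 33, 0 and 37 in itaconate libraries. Cxcr3 had between 0 and 10 reads, Cxcr6 between 0 and 7, the scavenging receptor Ackr3 between 0 and 12, and Cxcr5 1 read in all. Cxcr1 and Ackr1 had none. Neither of the 2 receptors that passed the filter passed the test. Neutrophil markers summed to 238 to 254 CPM in WT, 164 to 215 CPM in KO and 79.8 to 220 CPM in itaconate libraries. Nearly all of each sum was S100a8 and S100a9. Ngp and Ltf had reads in every library, at 1.16 to 5.75 and 0.63 to 4.28 CPM. Camp reached 1.64 CPM and Elane 1.08 CPM, while Ly6g and Mpo stayed below 1 CPM. The T and natural killer cell list reached 2.11 CPM at most, with Cd3e, Cd8a and Ncr1 at 0. The B cell list reached 1.41 CPM, with Cd79a and Pax5 at 0, the dendritic cell list 2.43 CPM, and the endothelial list 10.5 to 23.6 CPM, with Tek at 0.

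The genes that lead to chemokine transcription were read from lists, none of whose members passed with all 9 libraries. Of 13 genes of the LPS and NF-κB route, 7 lay above 0 in KO against WT (median log2 fold change 0.07), 8 in itaconate against KO (0.06) and 6 in itaconate against WT (-0.12). Over all 10781 genes tested, 5272, 5219 and 5292 lay above 0 in the same order. Cd14, the LPS co-receptor, and Rela, an NF-κB subunit, had the smallest p in KO against WT, at -0.43 ± 0.36 and -0.30 ± 0.29. Tnfaip3, an NF-κB target that restrains the route, was 27.8, 28.1 and 41.2 CPM in WT, 16.6, 28.2 and 44 CPM in KO and 61.6, 57.0 and 119 CPM in itaconate libraries, all 3 of the last above the KO libraries, as for 5.61% of genes, and above the WT libraries, as for 7.3%. Its log2 fold change was 1.42 ± 0.39 against KO and 1.29 ± 0.38 against WT (edgeR adjusted p = 0.507 and 0.515). Myd88, the Toll-like receptor adaptor, differed by -0.78 ± 0.34 in itaconate against KO. Nfkbia, the NF-κB inhibitor, differed by 0.49 ± 0.26 in itaconate against WT. With the 4 conflicting libraries left out, Tnfaip3 was 1.38 ± 0.37 against KO and 0.52 ± 0.45 against WT (edgeR adjusted p = 0.0508 and 1), Cd14 was -0.98 ± 0.41 and Rela -0.54 ± 0.45 in KO against WT, and Nfkbia was 0.25 ± 0.39 in itaconate against WT.

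Of 14 genes of the interferon route, 10, 8 and 9 lay above 0 in the 3 comparisons, with medians of 0.07, 0.10 and 0.27. Beside them stand 5272, 5219 and 5292 of all 10781 genes tested. Stat2, a transducer of type I interferon signals, differed by 0.80 ± 0.36 in itaconate against KO and 1.11 ± 0.36 in itaconate against WT. Irf1, an interferon-induced transcription factor, differed by 0.72 ± 0.39 in the former, and Ifnar1, a type I interferon receptor chain, by 0.67 ± 0.28 in the latter. The interferon-γ receptor chains Ifngr1 and Ifngr2 differed by 0.89 ± 0.35 and 1.46 ± 0.62 in KO against WT. Ifngr2 was highest in KO replicate 1 (531 CPM) and itaconate replicate 3 (476 CPM), the libraries with most reads outside genes. In KO replicate 2 it was 79.2 CPM, within the WT range of 78.4 to 123 CPM. Cxcl9 was highest of the 9 in KO replicate 1 and below all KO libraries in itaconate replicate 3. A link between the levels of Ifngr2 and Cxcl9 was not tested. With the 4 conflicting libraries left out, Stat2 was 0.45 ± 0.34 in itaconate against KO, and in itaconate against WT Stat2 was 0.56 ± 0.43 and Ifnar1 0.27 ± 0.42. No member of this route was called with or without them (smallest edgeR adjusted p = 0.515 with all 9 libraries, in itaconate against WT).

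Of 7 genes that control chemokine messenger stability, 2 lay above 0 in KO against WT, 6 in itaconate against KO and 7 in itaconate against WT. Their medians were -0.06, 0.36 and 0.22. Over all 10781 genes tested, 5272, 5219 and 5292 lay above 0 in the same order. Zfp36, which encodes tristetraprolin, an RNA-binding protein that speeds decay of inflammatory messengers, was 68.2, 53.7 and 88.4 CPM in WT, 49.9, 64.4 and 132 CPM in KO and 149, 146 and 134 CPM in itaconate libraries. It differed by 1.03 ± 0.35 in itaconate against WT (edgeR adjusted p = 0.518) and by 0.23 ± 0.35 in KO against WT. Its relative Zfp36l1 differed by 0.87 ± 0.29 and Rc3h1, which encodes the decay factor roquin-1, by 1.31 ± 0.44 in itaconate against KO. Rc3h1 differed by 1.25 ± 0.44 against WT as well, with 484 CPM in itaconate replicate 3 and 107 and 205 CPM in the other itaconate libraries. Zc3h12a, the nuclease regnase-1, differed by -0.20 ± 0.28 in KO against WT. With the 4 conflicting libraries left out, Zfp36 was the only gene of these route lists called, at 1.34 ± 0.35 in itaconate against KO (edgeR adjusted p = 0.049), and Rc3h1 was 0.83 ± 0.37 there and 0.32 ± 0.45 against WT. In KO against WT, Zfp36 then lay below 0 (-0.61 ± 0.42, adjusted p = 0.653) and Zc3h12a was -0.73 ± 0.41. Among genes that handle the proteins, Srgn encodes the core protein of the granule proteoglycan that binds Pf4. It was 817, 797 and 552 CPM in WT, 298, 493 and 443 CPM in KO and 459, 378 and 196 CPM in itaconate libraries. For Srgn every KO library lay below every WT library, as for 5.76% of genes. Every itaconate library did so too, as for 7.25%. Its log2 fold change was -0.81 ± 0.33 in KO against WT, -0.26 ± 0.33 in itaconate against KO and -1.07 ± 0.34 in itaconate against WT (edgeR adjusted p = 0.995, 0.859 and 0.515), and -0.46 ± 0.42, 0.05 ± 0.35 and -0.40 ± 0.42 with the 4 conflicting libraries left out. Adam10, a protease that sheds Cxcl16, differed by 0.38 ± 0.40 in KO against WT and 0.63 ± 0.40 in itaconate against WT. With the 4 left out these were 0.82 ± 0.45 and 0.14 ± 0.44. The related protease Adam17 differed by 0.28 ± 0.26 in itaconate against KO.

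Genes with the profile most like each member over the 9 libraries were found among 7285 genes with a mean of at least 10 CPM, by Pearson's r of log2 CPM. These values describe 9 libraries that differ in depth and in their RNA, and a high r is easily reached among so many genes. Cxcl2 was closest to 2510009E07Rik (r = 0.985), Bnip3 (0.982) and Slc7a11 (0.958), and Cxcl10 to Ccl7 (0.984), Il15 (0.975) and Il1rn (0.963). Cxcl9 was closest to Nostrin (0.962), D630036H23Rik (0.936) and Ms4a14 (0.923), and Cxcl3 to Pttg1 (0.968), Rusc2 (0.965) and Hdac3 (0.964). For Cxcl1 they were Tpst2 (0.979), Manf (0.978) and Ube2m (0.977). For Cxcl16 they were Fcgrt (0.963) and Pip4p1 (0.957), for Pf4 Ccdc107 (0.981), Urm1 (0.964) and Asb8 (0.937), and for Cxcl14 Pfdn6 (0.953), Rps10 (0.93) and Foxk2 (0.923). No member was among the nearest genes of another.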

How the data were processed

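Messenger RNA of 9 libraries was captured on oligo-dT beads, copied with barcoded oligo-dT primers, pooled and amplified, per the labels' protocols, which mention no molecular identifier. The deposited table holds unnormalised counts, the authors' whole-number reads per gene. The submitters' processing notes name STAR, HTSeq and mm10, with versions and annotation not given in the sources used here. Symbols were matched by Ensembl identifier without its version for 21745 of 22165 gene rows, and 5 summary lines were left out of library sizes and tests. Reads with several alignments (17.1% to 20.0%) were in a summary line, so shared sequence lowers counts.

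All 9 libraries entered 1 quasi-likelihood fit in edgeR 4.0.16 (R 4.3.3) with group as the only term, TMM scaling and a minimum count of 10. CPM values use TMM-scaled totals. The alternatives were DESeq2 1.42.0, limma-voom (limma 3.58.1), other scaling, no filter, a replicate block, 2 groups only, pools, and libraries left out, which for genes other than the members was added after seeing the data. The members, lists and alternatives, and the rule for named genes (all members, every other CXC ligand or receptor with reads, the 2 smallest p of each route list, the 3 nearest genes), were chosen with earlier results of these data known. One of the nearest genes is not reported here.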

Additional observations from a re-analysis of the deposited data

How the results depend on the processing

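The gene test was repeated under 18 other settings, and 362 of 400 values for single members kept their direction and their side of the threshold (5 of these, by DESeq2 in itaconate against WT, have no adjusted p). Of the rest, 33 changed sign without being called, and 5 were called where they had not been: Cxcl3, Cxcl9, Cxcl10 and Pf4 in itaconate against KO with the 4 libraries in conflict with their Irg1 labels left out, and Cxcl9 there with no filter (-1.44, adjusted p = 0.0162). The number of members called in itaconate against KO was thus 4 and 1 in those settings and 0 in the others. The number of genes called, 0 in each comparison, was 1, 12 and 14 by DESeq2 and 2, 217 and 1 without the 4 libraries for KO against WT, itaconate against KO and itaconate against WT. With no filter it was 80 and 92 in the last 2 comparisons. Leaving out 1 library gave 0 to 6 genes in itaconate against KO and 0 to 4 in itaconate against WT, the highest without itaconate replicate 1.

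For KO against WT, leaving out 1 library moved Cxcl2 between -0.57 and 0.64, Cxcl3 between -1.05 and 0.39, Cxcl10 between -1.68 and 0.28 and Cxcl14 between -0.56 and 0.0029. For itaconate against KO it moved Cxcl1 between -0.18 and 0.83, Cxcl2 between -0.12 and 1.07, Cxcl10 between -0.031 and 1.94 and Cxcl14 between -0.48 and 0.30. For itaconate against WT it moved Cxcl1 between -0.64 and 0.065, Cxcl2 between -0.092 and 1.10, Cxcl10 between -0.25 and 0.64, Cxcl16 between -0.37 and 0.20 and Pf4 between -0.16 and 0.64. Cxcl2 in KO against WT was -1.35 without the 4 libraries and -0.57 within pool 1. With the pool as a term, Cxcl1, Cxcl2 and Cxcl10 in itaconate against KO were -0.12, -0.99 and -0.51. Without the 4 libraries Cxcl14 was 0.42 in itaconate against KO, and Cxcl2 and Cxcl10 were -0.88 and -0.25 in itaconate against WT. The cause was not tested. Same-numbered libraries did not deviate together in every pair (correlations -0.159 to 0.245), so the numbers were not taken as pairs. With the replicate number as a block no gene of the 8 was called in any comparison and the count of genes called stayed 0, with Cxcl9 in itaconate against KO at -1.37 (adjusted p = 0.418), and 4 of 9 libraries correlated best with one of their own number. Gene reads of 7361671 to 20430359 put the reads of the least abundant member, Cxcl14, at 42 to 116 per library.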
